A study of Vaccinium corymbosum with 9 samples.

Results

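Cuticular wax of plants is made in epidermal cells from very-long-chain acyl groups, which leave the elongation cycle through a pair of branches. In Arabidopsis, CER1, named in KEGG as an aldehyde decarbonylase, acts in the alkane-forming branch, whose products can be oxidised further to secondary alcohols and ketones. Alcohol-forming fatty acyl-CoA reductases act in the other branch and give the primary alcohols that are also built into wax esters, and members of the same family make alcohols for suberin and for the pollen wall.

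The genes described here are those of blueberry that stand at the entry of these branches. They were chosen by annotation and by their measured level: all rows with KEGG ortholog K15404 (CER1) or K13356 (alcohol-forming fatty acyl-CoA reductase) that reached an FPKM, a level per length and library size, of at least 1 in at least 3 of the 9 libraries. Of 93716 annotated genes 24 carried one of the orthologs, 6 of them K15404 and 18 of them K13356, and 3 met the rule: 1 CER1 gene and 2 reductases. The other 21 stayed under it and were not tested. The libraries were made from whole fruit of Vaccinium corymbosum 'Bluecrop', grown in an orchard with no treatment in any group, picked as early green, as color break or as mature fruit, with 3 independent biological replicates per stage. The study asked how the wax bloom of the fruit forms. The sources used here do not give the age of the plants or the number of fruits behind a sample. The text on library making names a Populus hybrid, although the samples and genes are labelled as blueberry.

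Whole fruit mixes skin, flesh and seeds, so fewer cells of a type and less RNA per cell cannot be told apart in the values below. Libraries held 52919289 to 67604266 estimated counts, and the first principal component of log2(CPM + 1), with 81.8% of the variance, placed the green libraries below -141 and all others above 0. Color break replicate 3 stood apart within its stage, with a score of 54.1, where the other color break libraries had 75.6 and 79.7. Summed FPKM of genes annotated as seed storage proteins lay between 24835 and 30154 in green fruit, between 1530 and 2304 in color break fruit, and between 1522 and 1740 in mature fruit, over 104 rows of which 2, 16 and 18 were at 0 throughout those stages. Sums for light-harvesting proteins were 511 to 547, 264 to 299 and 160 to 180 FPKM (61 rows; 0, 1 and 4 at 0), and sums for chalcone synthase, of pigmented skin, were 31.9 to 33.2, 2490 to 2886 and 2069 to 2623 FPKM (14 rows; 1, 2 and 0 at 0). Sums for lignin precursor enzymes were 681 to 717, 3098 to 3462 and 2529 to 2996 FPKM (79 rows; 12, 18 and 13 at 0). The part of these differences in the CER1 and reductase values was not tested.

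CER1, VaccDscaff37-augustus-gene-293.17, was by far the most abundant of the 3 genes and stood at a higher level in color break and mature fruit than in green fruit. It lies on the plus strand of scaffold 37 from 29284952 to 29293714 in the coordinates of the deposited table (the sources used here name no genome build), and its model has 11 exons over 8763 bp. Its FPKM was 52.9, 58.3 and 57.5 in green, 99.3, 99.1 and 109 in color break, and 114, 110 and 95.9 in mature libraries. All 6 later libraries were above all 3 green libraries, and the color break and mature values overlapped. The stage means were 56.2 ± 2.93, 102 ± 5.46 and 107 ± 9.42 FPKM (SD, n = 3 each). Ordered by FPKM, the gene's median rank among all annotated genes was 1218 in green, 747 in color break and 619 in mature fruit. Its level rested on 7885 to 19409 estimated counts per library.

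CER1 rose in color break against green fruit, with a log2 change of 1.14 ± 0.08 (SE; 95% interval 0.97 to 1.31; edgeR quasi-likelihood test with Benjamini-Hochberg adjustment, adjusted p = 1.22e-06). Calls required an adjusted p under 0.05 together with a log2 change of 1 or more in size, and in this comparison 22.8% of the 48073 tested genes were called, 8.89% higher and 13.9% lower in color break fruit. Of the 2 genes whose test does not rest on the rule, CER1 and the scaffold 46 reductase, CER1 alone was called. Between mature and color break fruit its change was 0.04 ± 0.07 (95% interval -0.13 to 0.21, adjusted p = 0.819), and none of the 3 genes was called, against 1.37% of all tested genes (0.763% higher and 0.612% lower in mature fruit). Against green fruit, mature fruit stood 1.18 ± 0.08 higher on the log2 scale (95% interval 1.01 to 1.35, adjusted p = 8.80e-07), with 24.6% of tested genes called, 9.49% higher and 15.1% lower. The F test over the stages gave CER1 an adjusted p of 1.39e-06, and passed 59.0% of tested genes.

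The size of the CER1 change depended on how libraries were scaled and on which genes were fitted, and its direction did not. TMM, the scaling behind the log2 changes, gave factors of 1.12 to 1.14 to green libraries and 0.931 to 0.948 to the others. With scaling by library size alone the median of all tested genes moved to -0.29 in color break against green fruit and -0.28 in mature against green fruit, against -0.01 in both with TMM. CER1 then changed by 0.86 and 0.91, under the fold threshold. In color break against green fruit this is 1.15 above that median, as with TMM. Scaling moves all genes of a library together, so the equal distance was given in advance. With TMM and only genes at a mean FPKM of at least 5, the change was 0.89, which is 0.90 above the median of those genes. With TMM and no filter on low values it was 1.25, which is 1.40 above the median of the genes then fitted. The ratios of the FPKM means, which carry no TMM factor, were 1.82 for color break against green fruit, 1.04 for mature against color break fruit and 1.89 for mature against green fruit. Over 21 ways of processing the values the change in color break against green fruit lay between 0.85 and 1.27 and its highest adjusted p was 2.45e-05. Without color break replicate 3 it was 1.09 (adjusted p = 2.75e-06), and the change in mature against color break fruit was 0.08 (adjusted p = 0.578).

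**Figure D1:**
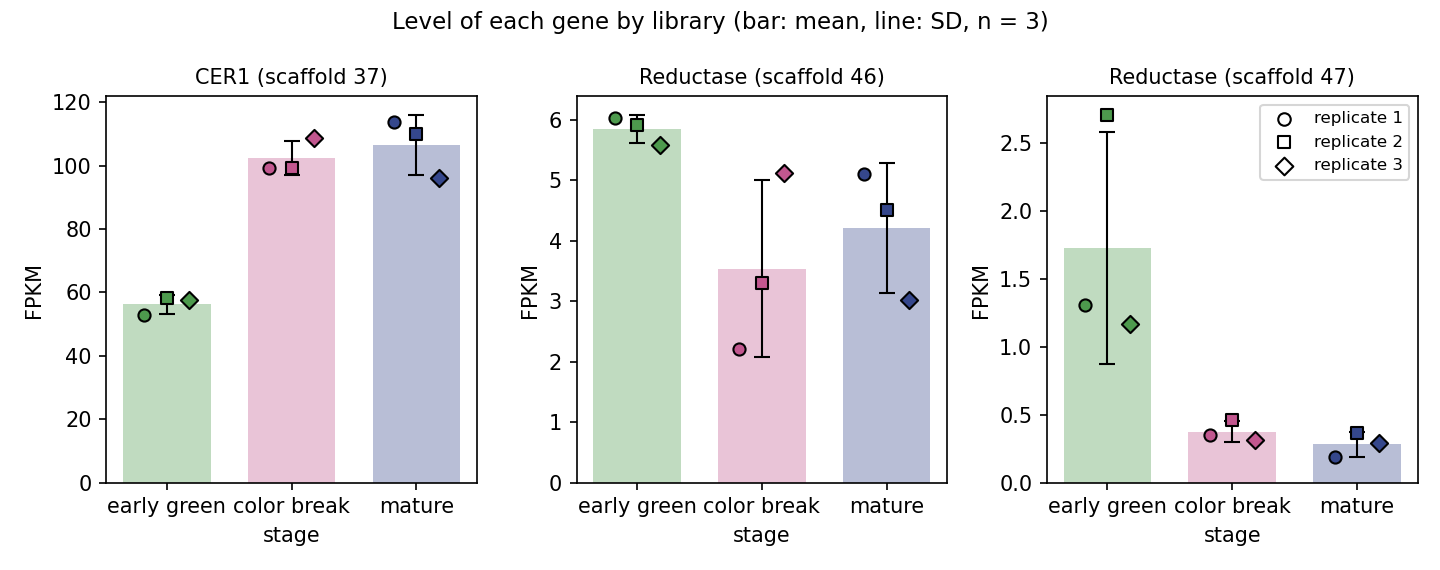
FPKM of CER1 and the 2 reductases in each library (points, by replicate), with the stage mean (bar) and SD (line, n = 3); each panel has its own linear axis from 0. CER1 lies between 95.9 and 114 FPKM in the 6 later libraries and between 52.9 and 58.3 in green ones, while the scaffold 46 reductase spreads from 2.21 to 5.11 FPKM in color break fruit.

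CER1 was not alone in its description. The same protein description, that of a Vaccinium darrowii protein with no function named, stood on 3 further rows that carry no KEGG ortholog and so fell outside the rule; they were chosen after their values were seen. Models of like transcript length, 2673 and 2726 bp against 2355 bp for CER1, lie on scaffolds 39 and 6. The scaffold 39 model (VaccDscaff39-snap-gene-10.22, minus strand, 987563 to 1003191) has 14 exons over 15629 bp, a longer span than that of CER1. The scaffold 6 model (VaccDscaff6-augustus-gene-412.16, plus strand, 41187071 to 41196357) has 11 exons over 9287 bp. A shorter model of 6 exons, VaccDscaff37-augustus-gene-293.18, begins after a gap of 2643 bp downstream of CER1 on the same strand, at 29296358 to 29300170. No sequences were compared, so how reads were divided among rows that share a description is uncertain, and the sources used here do not say whether counting used strand.

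The copies, too, stood lowest in green fruit. The scaffold 39 copy had 49.5, 52.5 and 52.7 FPKM in green, 103, 97.4 and 103 in color break, and 105, 115 and 90.5 in mature libraries. The scaffold 6 copy had 37.5, 37.1 and 34.4 FPKM in green, 66.6, 69.3 and 80.2 in color break, and 67.1, 68.0 and 57.6 in mature libraries. For both, no green library reached a later one. The log2 change in color break against green fruit was 1.25 ± 0.08 for the scaffold 39 copy and 1.26 ± 0.09 for the scaffold 6 copy (edgeR, SE). In mature against green fruit it was 1.26 ± 0.08 and 1.08 ± 0.09. Changes of the copies are a description without a test, since these rows were chosen with their values known. The short neighbour averaged 7.22 ± 0.771, 11.5 ± 1.79 and 13.1 ± 1.10 FPKM in green, color break and mature fruit (SD, n = 3 each). It changed by 0.95 ± 0.14 in color break against green fruit, under the fold threshold, and by 1.11 ± 0.14 in mature against green fruit (edgeR, SE). In mature against color break fruit the changes of the 3 copies lay between -0.18 and 0.16.

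Summed over these 4 rows, the CER1 description stood at 151 ± 4.78 FPKM in green, 287 ± 15.9 in color break and 287 ± 25.5 in mature fruit. With their counts summed before the fit, the log2 change was 1.27 ± 0.07 in color break against green fruit and -0.02 ± 0.07 in mature against color break fruit (edgeR, SE), given as a description since the copies were chosen with their values known. VaccDscaff37-augustus-gene-293.17 supplied 37.1% ± 0.846 of the sum in green, 35.6% ± 0.103 in color break and 37.1% ± 0.986 in mature fruit. The scaffold 39 copy supplied 34.1%, 35.3% and 35.9%, and the scaffold 6 copy 24.0%, 25.0% and 22.4%. At each stage mean the copies thus stood in the same order, with the shares on scaffolds 37 and 39 closer than their spread in color break and in mature fruit. In color break replicate 1 and in mature replicate 2 the order of scaffolds 37 and 39 was turned. Mature replicate 2 had 36.1% from scaffold 37 and 37.7% from scaffold 39.

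The scaffold 46 reductase, VaccDscaff46-augustus-gene-104.22, lies on the minus strand from 10384137 to 10394364 with 10 exons, and was the only reductase at 1 FPKM or more in every library. Its FPKM was 6.04, 5.92 and 5.59 in green, 2.21, 3.30 and 5.11 in color break, and 5.11, 4.51 and 3.02 in mature libraries. No later library reached the lowest green one in FPKM, which carries no TMM factor. The TMM factors were higher in green libraries, and this order did not hold once counts per library size were divided by them. Color break replicate 3 and mature replicate 1 then stood above every green library. Color break replicate 3 was the highest of its stage, beside mature replicate 1. The stage means were 5.85 ± 0.233, 3.54 ± 1.47 and 4.21 ± 1.07 FPKM (SD, n = 3 each). The log2 change was -0.45 ± 0.29 in color break against green fruit (95% interval -1.10 to 0.20; edgeR, adjusted p = 0.215) and -0.22 ± 0.29 in mature against green fruit (95% interval -0.86 to 0.43, adjusted p = 0.544). Between mature and color break fruit it was 0.23 ± 0.29 (95% interval -0.42 to 0.88, adjusted p = 0.707). No comparison called the gene, and in this fit each interval includes changes of either sign.

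Scaling and single libraries moved these values. In color break against green fruit the change was -0.64 with limma on log2(FPKM + 1) (adjusted p = 0.0334), -0.79 with limma on log2(FPKM + 0.1) (adjusted p = 0.0386) and -0.73 with library size only (edgeR, adjusted p = 0.0555), where the medians of all tested genes were -0.21, -0.28 and -0.29. All were under the fold threshold. Without color break replicate 3 the scaffold 46 reductase changed by -0.81 ± 0.23 in color break against green fruit (edgeR, adjusted p = 0.0173), which passes the adjusted p and not the fold threshold, and the F test over the stages gave an adjusted p of 0.0396, against 0.399 with all libraries. The change in mature against color break fruit was then 0.59 ± 0.23 (adjusted p = 0.170). Without color break replicate 1 the changes were -0.20 in color break against green fruit (adjusted p = 0.514) and -0.01 in mature against color break fruit (adjusted p = 0.985). Without mature replicate 3 they were 0.43 in mature against color break fruit (adjusted p = 0.492) and -0.03 in mature against green fruit (adjusted p = 0.949), and without mature replicate 1 they were 0.07 (adjusted p = 0.933) and -0.38 (adjusted p = 0.361) in these comparisons. Color break replicate 3 had the highest seed storage sum of its stage, at 2304 FPKM against 1542 and 1530 in the others, and the part of this in the reductase value was not tested. The coefficient of variation of the gene was 3.98% in green, 41.5% in color break and 25.5% in mature fruit. Among genes within 1.5-fold of its level, 95.4% of 11248 had a lower one in color break fruit, 90.4% of 10931 in mature fruit and 16.5% of 12227 in green fruit.

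The scaffold 47 reductase, VaccDscaff47-snap-gene-54.13, on the plus strand from 5418439 to 5426893 with 10 exons, met the rule only through its green libraries. Its FPKM was 1.31, 2.70 and 1.16 in green, 0.351, 0.463 and 0.312 in color break, and 0.184, 0.368 and 0.290 in mature libraries. Green replicate 2 was far above the other green libraries, and no later library reached 1. Since the rule used the green values, the log2 changes of -1.90 in color break against green fruit and -2.34 in mature against green fruit are a description without a test. The estimated counts behind them numbered 135 to 310 per green library, 41 to 65 per color break library and 23 to 45 per mature library. Between the stages that the rule did not use, mature against color break fruit, the change was -0.43 ± 0.39 (95% interval -1.30 to 0.43; edgeR, adjusted p = 0.576), so a difference was not detectable at this depth.

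This gene stood just inside the threshold, and VaccDscaff43-snap-gene-144.22, a reductase on scaffold 43 with the same description, just outside it. The scaffold 43 row had 1.35, 0.877 and 2.21 FPKM in green, 0.636, 0.313 and 0.513 in color break, and 0.689, 0.256 and 0.304 in mature libraries, and so passed 1 FPKM in 2 of 9 libraries. Both therefore had their higher values in green fruit, on opposite sides of the rule. A copy on scaffold 22, VaccDscaff22-snap-gene-240.29, did not exceed 0.317 FPKM in any library.

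**Figure D2:**
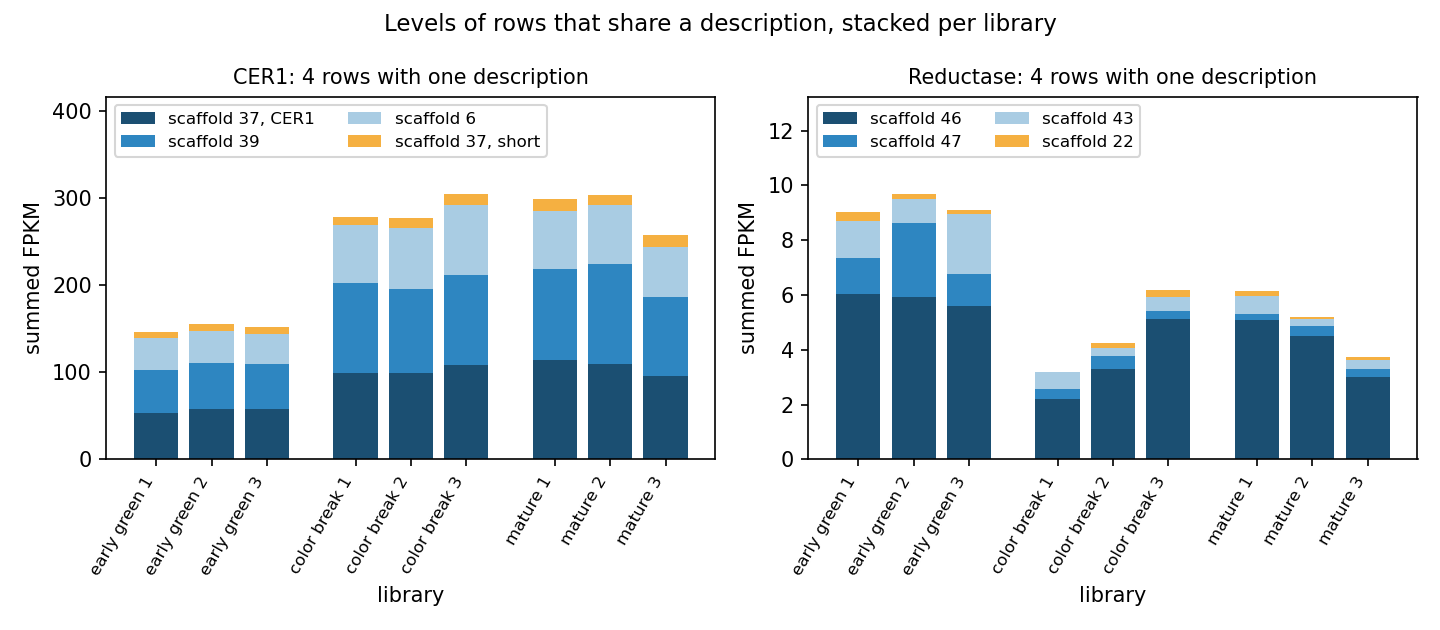
Summed FPKM of the 4 rows with the CER1 description (left) and the 4 rows with the reductase description (right), stacked by row for each library on linear axes from 0. The CER1 sum averages 287 FPKM in color break and in mature fruit against 151 in green fruit; the reductase sum averages 4.55 and 5.02 FPKM in color break and mature fruit, against 9.28 in green fruit.

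The 4 reductase rows of one description, on scaffolds 46, 47, 43 and 22, summed to 9.28 ± 0.371 FPKM in green, 4.55 ± 1.52 in color break and 5.02 ± 1.22 in mature fruit. With their counts summed before the fit, the change was -0.69 ± 0.24 in color break against green fruit and -0.56 ± 0.24 in mature against green fruit (edgeR, SE), both under 1 in size. This sum holds the scaffold 47 gene, whose green level the rule used, so it is a description without a test. The scaffold 46 gene supplied 63.1% ± 3.36 of the sum in green, 76.4% ± 6.84 in color break and 83.7% ± 2.90 in mature fruit, and the scaffold 47 gene 18.4%, 8.98% and 5.96%.

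All 21 rows of the 2 orthologs that stayed under the rule had low values. Among the 18 reductase rows, GO terms for wax stood on 5, of which 2 met the rule. GO terms for suberin stood on 10, of which none met the rule and none exceeded 0.539 FPKM in any library. Terms for the pollen wall stood on 3, with 0.0704 FPKM as the highest value. The other 5 CER1 rows lie together on scaffold 22, between 5834629 and 6000677, and none met the rule. The highest of them, VaccDscaff22-augustus-gene-59.30, averaged 0.745 FPKM in green, 0.219 in color break and 0.545 in mature fruit. Rows described as an aldehyde decarbonylase or a fatty acyl-CoA reductase without these orthologs numbered 1 each, and neither met the rule.

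Set side by side, which FPKM allows since it is per length, CER1 exceeded the scaffold 46 reductase 9.63 ± 0.787 fold in green, 32.1 ± 12.03 fold in color break and 26.1 ± 4.96 fold in mature fruit. Within a library, CER1 made up 87.1% to 89.5% of the summed FPKM of the 3 genes in green libraries, 95.2% to 97.5% in color break libraries and 95.6% to 96.7% in mature libraries. The share was 8.22 percentage points higher in color break than in green fruit and 7.85 points higher in mature than in green fruit, with no overlap of libraries in either pair. These differences are a description without a test, since the scaffold 47 gene in the sum was chosen through its green level. Over CER1 and the scaffold 46 gene alone, the share was 96.7% ± 1.16 in color break and 96.2% ± 0.638 in mature fruit, against 90.6% ± 0.720 in green fruit (SD, n = 3 each). The differences from green fruit were 6.14 and 5.68 points, and each gave a two-sided exact permutation p of 0.1, the smallest that 3 against 3 libraries allow, and 0.15 after Benjamini-Hochberg adjustment over the 3 pairs of stages. Mature and color break fruit differed by -0.47 points (exact permutation p = 0.7). The share without the scaffold 47 gene was chosen after the data were seen, so these p-values are given as a description.

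**Figure D3:**
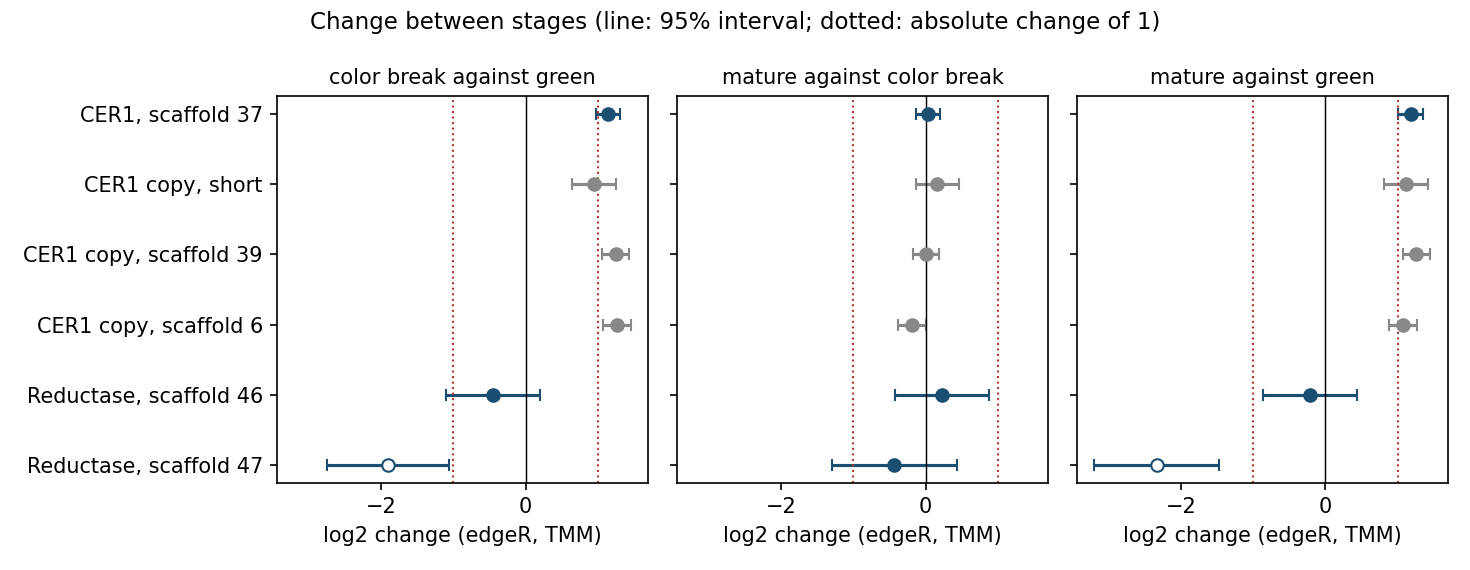
Log2 change (edgeR with TMM) of CER1, its 3 copies and the 2 reductases in each comparison; lines are 95% intervals and dotted lines mark an absolute change of 1. Open points are the scaffold 47 reductase against green fruit, where the rule used the values. Intervals of the copies are a description, since these rows were chosen after their values were seen. CER1 and its copies lie between 0.95 and 1.26 in both comparisons with green fruit and between -0.18 and 0.16 in mature against color break fruit.

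The neighbourhoods of these loci were alike. Of the descriptions on the 10 annotated genes on each side of CER1, 17 distinct ones could be compared, and 11 of them recurred around the scaffold 39 copy and 10 around the scaffold 6 copy, out of 17 at each. Around the scaffold 46 reductase 11 of 19 descriptions recurred beside the scaffold 47 reductase, out of 18 there, and 9 beside the scaffold 22 copy, out of 20. The scaffold 43 locus shared 4 of its 19 descriptions with scaffold 46 and 3 with scaffold 47.

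**Figure D4:**
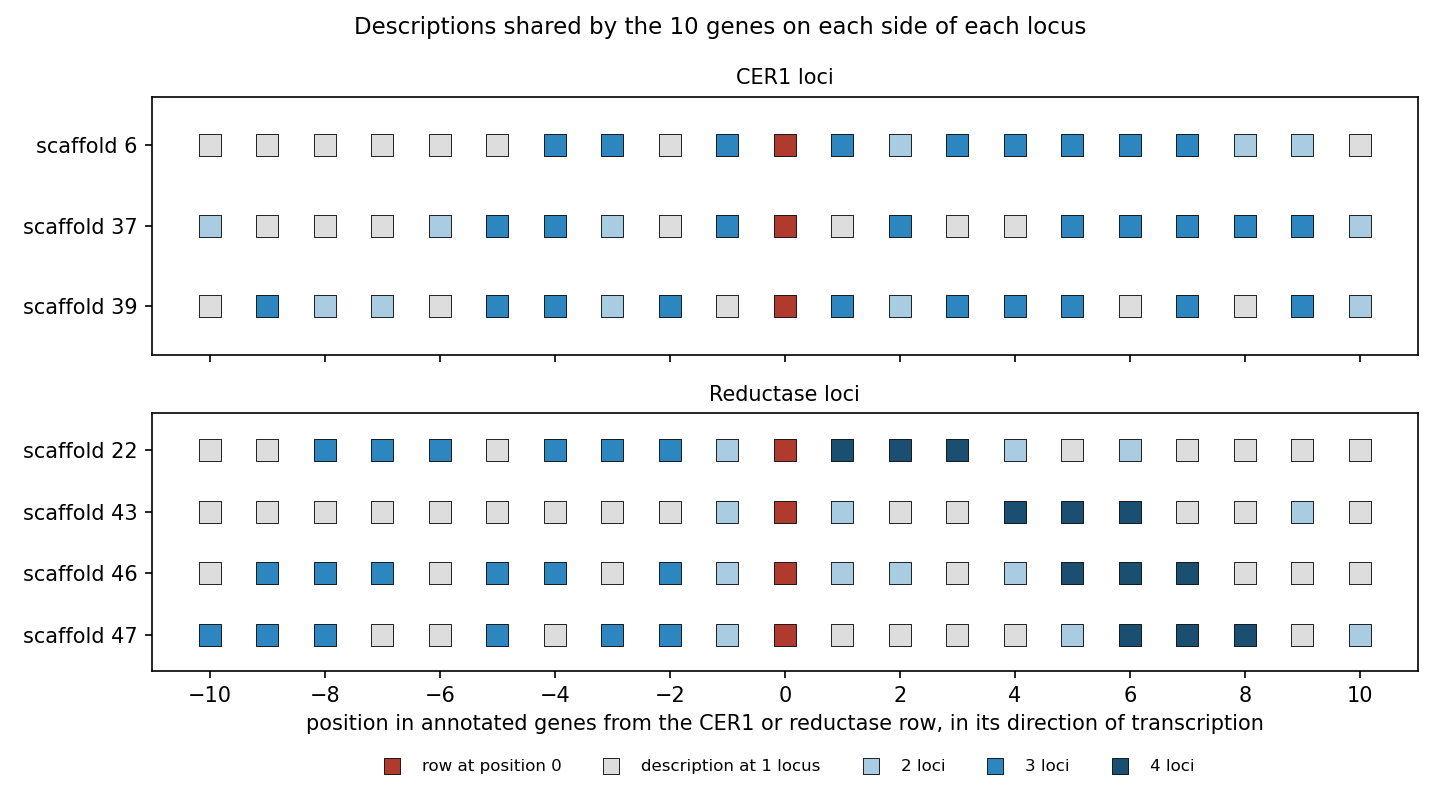
The 10 annotated genes on each side of the CER1 loci (top) and the reductase loci (bottom), in gene order along the direction of transcription; colour gives at how many of the loci of that panel a gene's description occurs, and red is the gene at position 0. The scaffold 37 and 39 CER1 loci share 11 descriptions, and so do the scaffold 46 and 47 reductase loci.

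Next to the scaffold 46 reductase, after a gap of 15104 bp, lies VaccDscaff46-snap-gene-104.29, and next to the scaffold 47 reductase, after 13157 bp, VaccDscaff47-snap-gene-54.12; both carry K12196, the vacuolar sorting ATPase VPS4. Their mean FPKM in green, color break and mature fruit was 19.1, 24.8 and 24.2 on scaffold 46 and 6.36, 9.08 and 9.77 on scaffold 47. Neither was called in any comparison, but against green fruit both passed the adjusted p and not the fold threshold. The log2 changes in color break and in mature against green fruit were 0.65 and 0.59 on scaffold 46 (edgeR, adjusted p = 1.26e-05 and 2.08e-05). On scaffold 47 they were 0.79 and 0.87 (adjusted p = 0.0250 and 0.0150). On its other side the scaffold 46 reductase has VaccDscaff46-augustus-gene-103.25, a reductase row with suberin terms that averaged 0.0327 FPKM in green, 0 in color break and 0.0486 in mature fruit. The gene upstream of CER1, VaccDscaff37-augustus-gene-292.21, at a gap of 79780 bp, averaged 12.5, 16.04 and 15.8 FPKM and was not called either. It rose by 0.63 in color break and 0.59 in mature against green fruit (edgeR, adjusted p = 0.00118 and 0.00160), under the fold threshold.

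Likeness of pattern was measured as Pearson's r of log2(FPKM + 1) over the 9 libraries, among 18725 genes with a mean FPKM of at least 5. The libraries share 3 stages, so r for CER1 mainly describes the stage profile. For the reductases r also follows the spread of single libraries within a stage. That spread was wide for scaffold 46 in color break and mature fruit, and for scaffold 47 in green fruit, whose values the rule used. Nearest to CER1 were VaccDscaff35-augustus-gene-222.16, a K01176 alpha-amylase of starch breakdown (r = 0.995), VaccDscaff29-processed-gene-281.10, with no named function (r = 0.995), and VaccDscaff46-snap-gene-198.38, described as beta-glucosidase 11-like (r = 0.994). The CER1 copies on scaffolds 39 and 6 had r = 0.992 and 0.967. Nearest to the scaffold 46 reductase was VaccDscaff19-snap-gene-366.40, annotated to K18270 (r = 0.963), followed by VaccDscaff18-augustus-gene-262.35 (r = 0.922) and VaccDscaff3-augustus-gene-197.24 (r = 0.920). Nearest to the scaffold 47 reductase was VaccDscaff5-augustus-gene-274.15, with a GO term for ubiquitin ligase activity (r = 0.987).

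The genes that feed or assist these branches did not move as one. The fatty acid elongase that lengthens acyl chains has a condensing subunit, 3-ketoacyl-CoA synthase, of which 39 genes were tested: 4 rose and 19 fell in color break against green fruit (median log2 -0.86), where 8.89% and 13.9% of all tested genes did. In mature against color break fruit 12 rose and 2 fell, beside 0.763% and 0.612% of all tested genes, and in mature against green fruit 7 rose and 13 fell, beside 9.49% and 15.1%. The most abundant, VaccDscaff24-augustus-gene-329.18, averaged 48.2 ± 2.11 FPKM in green, 121 ± 19.6 in color break and 141 ± 19.3 in mature fruit and rose by 1.60 ± 0.13 in color break against green fruit (edgeR, adjusted p = 8.77e-06). None of the 11 ketoacyl-CoA reductases, 5 hydroxyacyl-CoA dehydratases and 5 enoyl-CoA reductases, the other elongase subunits, was called in any of the 3 comparisons. Smaller changes passed the adjusted p and not the fold threshold. The most abundant ketoacyl-CoA reductase and enoyl-CoA reductase rose by 0.63 and 0.70 in mature against green fruit (edgeR, adjusted p = 4.84e-05 and 5.27e-04). The most abundant dehydratase changed by -0.41 in color break against green fruit (adjusted p = 0.00402). Of 15 long-chain acyl-CoA synthetases, which activate fatty acids, 1 was called higher in color break and 2 in mature against green fruit. These counts are near the 8.89% and 9.49% of all tested genes, and none was called lower in either comparison. Their median log2 change was 0.46 in color break and 0.23 in mature against green fruit. The most abundant, VaccDscaff1429-snap-gene-0.4, changed by -0.39 in color break and -0.36 in mature against green fruit (edgeR, adjusted p = 1.56e-04 and 2.14e-04). These changes passed the adjusted p and not the fold threshold.

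Cytochrome b5, an electron carrier that works with CER1 in Arabidopsis, was searched for by description, and the 2 rows found were tested. Rows whose description names no function could not be found in this way, so these need not be the whole family. VaccDscaff480-snap-gene-0.17 averaged 22.3 ± 0.788 FPKM in green, 10.6 ± 0.460 in color break and 10.04 ± 0.945 in mature fruit, a change of -0.80 ± 0.09 in color break against green fruit (edgeR, adjusted p = 5.2e-05) that stayed under the fold threshold. VaccDscaff22-snap-gene-1.29 was named after its values were seen and so is given without a test. It averaged 3.58 ± 0.415 FPKM in color break against 9.07 ± 0.452 in green fruit, a log2 change of -1.07. Both thus stood lower where CER1 stood higher.

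Among other rows with the GO term for aldehyde decarbonylase activity but without K15404 or the CER1 description, also chosen after their values were seen and so given without a test, 3 of 9 passed the filter. VaccDscaff17-snap-gene-112.36 averaged 3.32 ± 0.618 FPKM in mature against 9.12 ± 1.24 in green fruit, and VaccDscaff20-snap-gene-267.45 averaged 3.57 ± 0.588 in mature against 9.18 ± 1.86 in green fruit. For both, every green library was above every mature one. VaccDscaff17-processed-gene-112.12 averaged 0.825 ± 0.136 in mature against 2.50 ± 0.0805 in green fruit and passed the filter through its green libraries. It lies from 11201634 to 11205965 on the plus strand, within the span of VaccDscaff17-snap-gene-112.36 on the minus strand, from 11199195 to 11207984, so these rows may share reads.

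On the cutin side, all 4 tested genes of HOTHEAD, an oxidoreductase of cutin monomers, rose in both comparisons with green fruit (median log2 3.06 in color break and 3.47 in mature against green fruit). The most abundant, VaccDscaff14-snap-gene-112.39, averaged 14.2 ± 0.152 FPKM in green, 93.2 ± 9.95 in color break and 125 ± 21.4 in mature fruit. Of 10 peroxygenases 4 rose and 4 fell in each comparison with green fruit, and of 12 glycerol-3-phosphate acyltransferases 3 rose and 6 fell. Among all tested genes 8.89% rose and 13.9% fell in color break against green fruit, and 9.49% and 15.1% in mature against green fruit. In mature against color break fruit 3 of the acyltransferases rose and none fell, beside 0.763% and 0.612% of all tested genes, and no peroxygenase was called. Summed over all 21 acyltransferase rows, FPKM was 57.8 ± 1.71 in green, 46.6 ± 3.22 in color break and 73.8 ± 8.35 in mature fruit. The most abundant, VaccDscaff22-augustus-gene-19.24, rose by 0.47 in color break and 0.61 in mature against green fruit, under the fold threshold. The feruloyl transferase ortholog had 1 tested gene, VaccDscaff34-augustus-gene-70.30, which averaged 0.378 FPKM in green, 0.900 in color break and 2.60 in mature fruit and passed the filter through its later libraries, so no test is given. Wax ester synthase, the midchain alkane hydroxylase, the CYP86 and CYP77 hydroxylases, ABC and lipid transfer proteins and the SHINE, MYB and DEWAX regulators had no tested row under the terms used and are not analysed here.

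**Figure D5:**
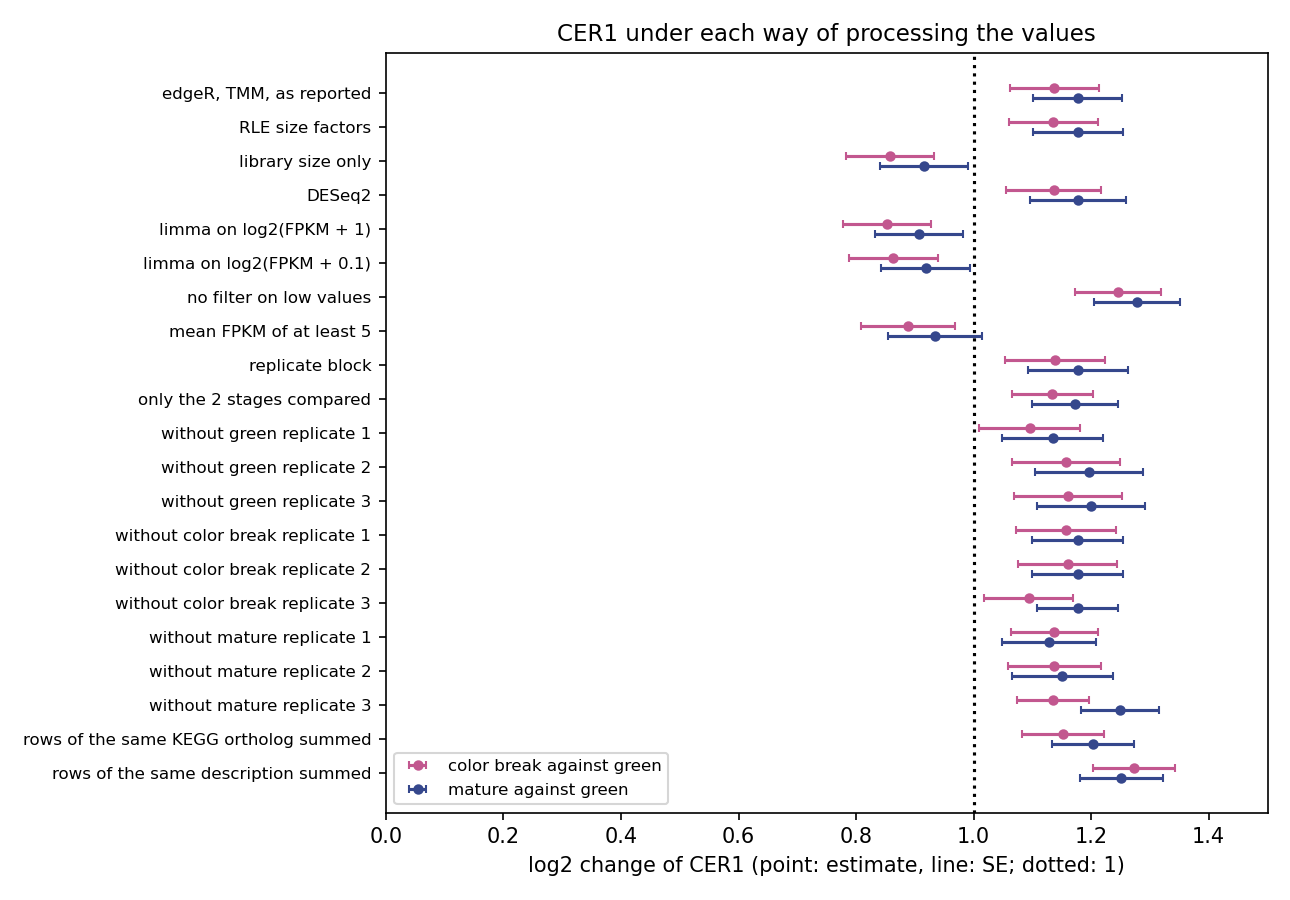
Log2 change of CER1 in color break against green and in mature against green fruit under each way of processing the values; points are estimates, lines their SE, and the dotted line is the fold threshold of 1. All points lie above 0.8, and those for library size only, limma on FPKM and the stricter filter lie under 1.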

How the data were processed

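Total RNA of fruit was sequenced on an Illumina NovaSeq, per the labels' protocols. The submitters' processing notes name fastp, HISAT2, StringTie and DESeq2; the sources used here give no versions or settings. The authors deposited 1 table of FPKM values, per length and library size, and estimated counts, which are whole numbers and were used as deposited. Recomputed from FPKM and length, 95.0% to 95.7% of counts per library came within 1 of the deposited ones. All 48073 genes at 1 FPKM or more in 3 or more libraries were fitted together with edgeR 4.0.16 in R 4.3.3 (TMM, robust quasi-likelihood, stage as the only term, all 9 libraries) after the code was tested on simulated data. Adjustment was over all tested genes. Shares were compared with exact permutation tests. A count of 0 allows up to 0.0444 to 0.0567 CPM, which covers counting error only. Alternatives were limma 3.58.1 and DESeq2 1.42.0, other scaling and filters, summed copies and leaving out each library. Genes were named as orthologs, just outside the rule, adjacent, nearest in pattern, or most abundant of each pathway family, apart from those said to be chosen after their values were seen. The members and lists were chosen with earlier results of these data known. No sequence is printed, since no reference was used here.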

Additional observations from a re-analysis of the deposited data

How the results depend on the processing

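Of 322 recomputed values 285 kept their direction, side of the threshold or size. CER1 fell under the fold threshold, at adjusted p values still under 0.05, in color break against green fruit with library size only (0.86), limma on log2(FPKM + 1) (0.85) or log2(FPKM + 0.1) (0.86) and a mean FPKM of at least 5 (0.89), and in mature against green fruit with the same settings (0.91, 0.91, 0.92 and 0.93). Leaving out libraries gave CER1 1.09 to 1.16 in color break against green fruit, -0.01 to 0.11 in mature against color break fruit and 1.13 to 1.25 in mature against green fruit. For the scaffold 46 reductase these ranges were -0.81 to -0.20, -0.01 to 0.59 and -0.38 to -0.03, with an F test adjusted p of 0.0396 to 0.616; summed with all reductase rows the adjusted p was 0.0412. The scaffold 47 reductase moved in color break against green and mature against green fruit to -0.94 and -1.05 with limma on log2(FPKM + 1), to -0.73 and -0.59 with all reductase rows summed and to -0.69 and -0.56 with rows of the same description summed; leaving out libraries gave -2.11 to -1.43, -2.58 to -1.87 and, in mature against color break fruit, -0.67 to -0.21. With a mean FPKM of at least 5 neither reductase could be fitted. The CER1 share differed between color break and green fruit by 10.7 points over all rows of the orthologs, 6.93 on counts, 4.23 with the copies and 6.14 without the scaffold 47 gene, and between mature and green fruit by 10.4, 6.62, 4.07 and 5.68; leaving out libraries gave 7.66 to 8.90 and 7.34 to 8.53. Between mature and color break fruit it ranged from -0.92 to 0.20 and turned positive without color break replicate 1 (0.20), which is within the spread of libraries. Genes called in color break against green fruit numbered 10979, 25962 with no fold threshold, 3483 at a mean FPKM of at least 5, and 10523 to 11673 without 1 library. In mature against color break fruit there were 661, 2930 with no fold threshold, 1002 with DESeq2, 246 with limma on log2(FPKM + 1) but 611 on log2(FPKM + 0.1), 196 at the stricter filter, 346 with only these stages fitted, and 415 to 1050 without 1 library, with 1050 lacking color break replicate 3 and 415 lacking mature replicate 3. In mature against green fruit there were 11824, 27494 with no fold threshold, 3776 at the stricter filter and 11406 to 12080 without 1 library. The F test passed 28360 genes, 12992 at the stricter filter and 24640 to 29207 without 1 library. The cause was not tested, except that the stricter filter tests fewer genes. Summing rows of the same description, and the shares with the copies or without the scaffold 47 gene, were chosen after seeing the data.

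Same-numbered libraries of different stages had correlated deviations of -0.012 to 0.225, over 0.1 in 2 of 9 pairs and not in every pair, so the numbers were not taken to pair samples. A library matched its own number best in 14 of 18 cases, which is a hint of pairing from the data and not from the design. With the replicate number as a block, 11144 genes were called in color break against green, 489 in mature against color break and 11916 in mature against green fruit; CER1 changed by 1.14, 0.04 and 1.18.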
